A study of Homo sapiens with 28 samples.

Results

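The MYC, MAX and MXD network was followed through 10 genes, MYC, MYCN, MYCL, MAX, MXD1, MXI1, MXD3, MXD4, MNT and MLX. They were taken by gene symbol from a table of 61815 human genes. No measured value entered that rule, but the genes were chosen with earlier results of these data known. RNA-Seq had been done on LNCaP, an androgen-responsive human prostate cancer cell line with no engineered change per the labels, kept for 72 h before any treatment in medium with charcoal-stripped serum, from which steroids have been removed. In the 24 h experiment, cells received DMSO vehicle, Senexin B at 1 µM, R1881 at 0.1 nM or R1881 with Senexin B, with 3 libraries per group. In the 72 h experiment, they received DMSO vehicle, SNX631 at 500 nM, R1881 at 1 nM or R1881 with SNX631, with 4 libraries per group. R1881 is a synthetic androgen. CDK8 and its paralog CDK19 are kinases attached to Mediator, a complex that links transcription factors to RNA polymerase, and both Senexin B and SNX631 block them. Doses are as labelled; for Senexin B the methods state another dose than the labels do. All 28 libraries come from 1 cell line. The study's methods call the replicates biological, while the labels do not say how they were grown, and p values measure the spread between these libraries. Time, androgen dose, inhibitor and experiment differ at once between the experiments and cannot be told apart.

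MYC, MYCN and MYCL are transcription factors that bind DNA only as pairs with MAX, and these pairs raise transcription of genes for ribosome production, nucleotide synthesis and cell division. MXD1, MXI1, MXD3, MXD4 and MNT also pair with MAX and read the same DNA sites, but bring corepressors, so that the balance between MYC and these antagonists is thought to set the output of shared target genes. MLX pairs with some of the antagonists and with the glucose-sensing factors MLXIP and MLXIPL, which joins the network to control of metabolism. In prostate cancer MYC is often amplified or overexpressed.

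The site these pairs read is the E-box, CACGTG, which is its own reverse complement, so a search of either strand finds the same matches. RefSeq promoter windows, each 300 bases long and reaching 250 bases before a transcription start, were found for 9 members, with 12 windows in all; MYC was not searched. Of these 12 windows, 3 held the E-box, 1 each of MXD4, MNT and MLX, and 7.26% of the 35116 windows of all genes in that table did so. The stretches that hold it are printed because they show that genes of the network carry the letters that network proteins read, and the E-box is in capitals. They are given 5′ to 3′ on the strand of the gene, from GRCh38.p14, and a match is a description of the letters and not of binding.
MXD4, chr4:2262302-2262359, minus strand: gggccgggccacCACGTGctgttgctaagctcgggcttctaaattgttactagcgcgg
MNT, chr17:2401208-2401293, minus strand: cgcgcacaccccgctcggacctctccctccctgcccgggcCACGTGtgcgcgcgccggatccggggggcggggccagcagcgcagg
MLX, chr17:42567010-42567095, plus strand: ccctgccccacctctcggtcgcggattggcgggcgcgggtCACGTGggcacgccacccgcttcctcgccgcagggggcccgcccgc
The E-box began 238 bases before the start in MXD4, 193 in MNT and 50 in MLX.

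Total counts per library ranged from 9846595 to 33809419, of which 1 library, vehicle replicate 3 at 24 h, was the deepest, with the next at 15248512. The common biological coefficient of variation between replicates was 2.72% at 24 h and 2.38% at 72 h. Luminal prostate markers were present in every library at a summed 2894 to 5080 CPM, counts scaled to library depth; basal markers summed to at most 0.0865 CPM and endothelial markers to at most 0.175 CPM, immune markers summed to 0.338 to 1.40 CPM (CD68 in every library, CD3E at 0 in all) and neuroendocrine markers to 0.168 to 1.147 CPM (SYP in every library, INSM1 at 0 in all), and of the stromal markers COL1A1 was at 7.45 to 30.9 CPM while COL1A2 was at 0 in 20 libraries and DCN in 24. In bulk RNA, fewer cells of a type and less RNA per cell cannot be told apart.

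All members but MYCN, 9 of 10, passed the filter on low counts. MYC was the most abundant in RPKM, counts scaled for exon length as well as depth to compare genes, with a mean of 104 over the 28 libraries. MXD4 followed at 31.9 RPKM, then MLX at 20.7, MXI1 at 19.7 and MAX at 15.7, and MXD3, MXD1 and MNT lay close together at 5.51, 5.11 and 4.78. This order rests on the length used, the union of annotated exons, which is 3001 bases for MYC and 7058 for MXD4. Without length scaling, mean MXD4 was above MYC in vehicle at 24 h (272 against 254 CPM) and with R1881 at 72 h (249 against 222). It was below MYC in all other groups. MYCL was low, with a mean of 1.38 RPKM, which rested on 47 to 185 counts per library. MYCN was at 0 counts in 27 of 28 libraries and had 1 count in the remaining one, a library of R1881 with Senexin B. A count of 0 allows up to 3 counts, which is 0.0887 to 0.305 CPM at these depths and covers counting error only, so MYCN was not detectable here and is absent from every comparison that follows.

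**Figure D1:**
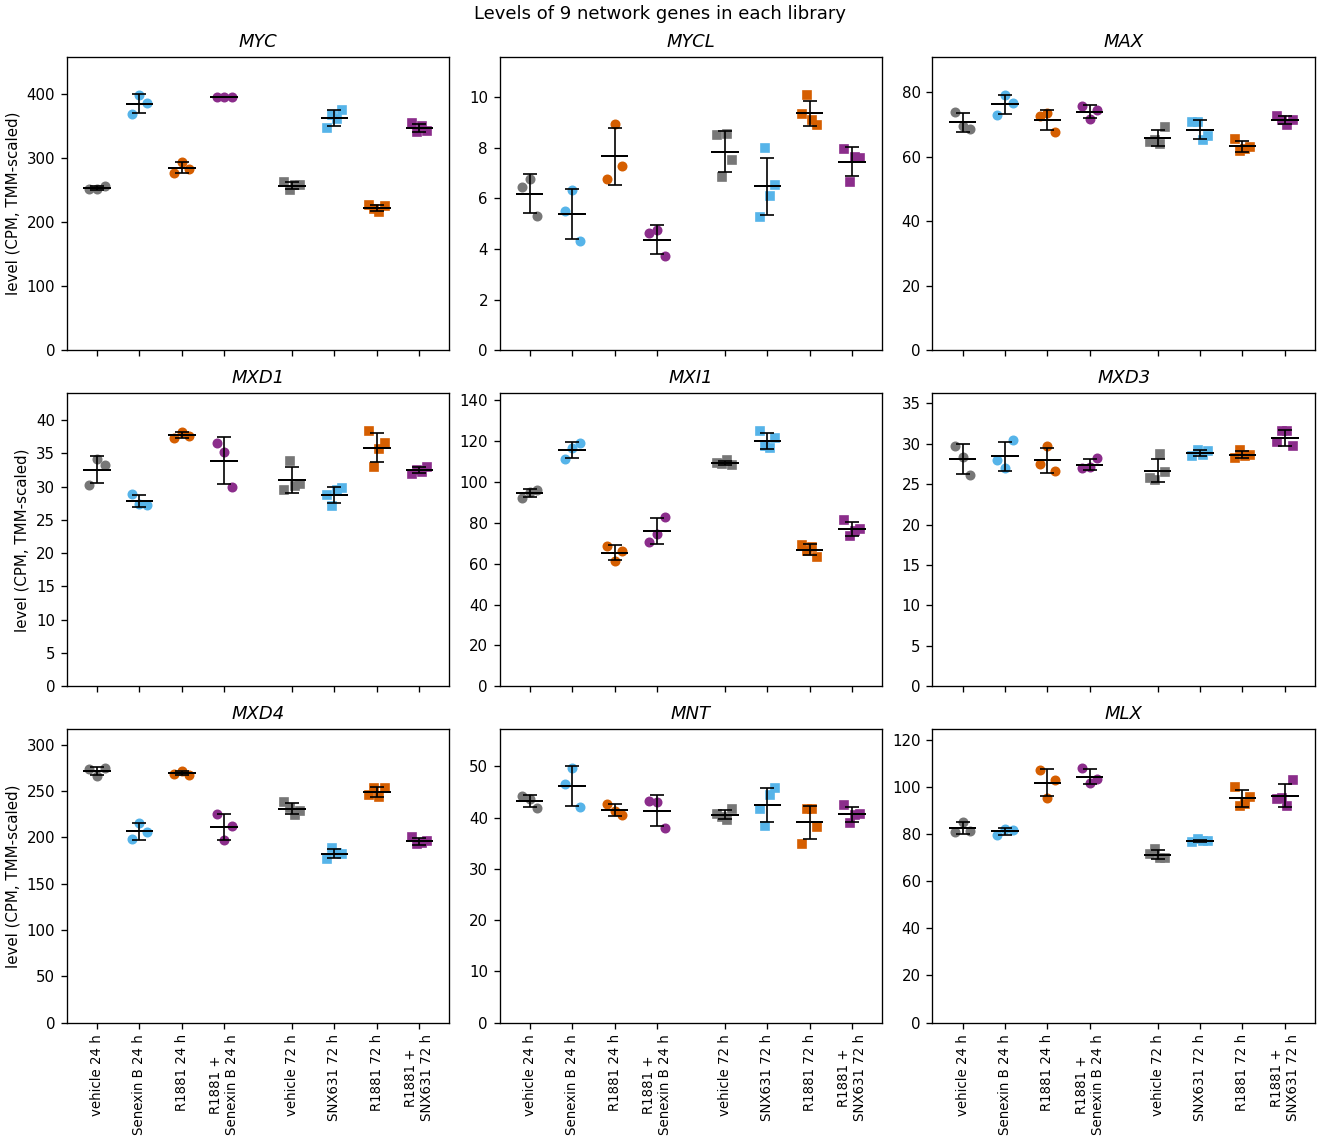
Level of each of the 9 detected members in every library, in CPM after TMM scaling over all 28 libraries, on linear axes that start at 0. Circles are 24 h libraries and squares 72 h libraries, horizontal bars are group means and vertical bars ± SD (n = 3 at 24 h, n = 4 at 72 h); MYC is higher and MXD4 lower in all inhibitor groups, and MXI1 is lower in all R1881 groups.

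MYC mRNA (ENSG00000136997, chr8:127735434-127741434, plus strand) was higher with either inhibitor, with and without androgen, and its response to androgen was small and differed in direction between the experiments. At 24 h, the vehicle libraries held 252, 253 and 257 CPM of MYC, and those with Senexin B 369, 387 and 399. With R1881, MYC was at 278, 284 and 295 CPM, and with R1881 and Senexin B at 396, 396 and 397. The ranges with and without Senexin B did not overlap in either setting. At 72 h, MYC was at 250.3, 258, 258 and 263 CPM in vehicle and at 347, 361, 368 and 376 with SNX631. It was at 216, 221, 225 and 228 CPM with R1881, below every vehicle library, and at 342, 343, 350.4 and 356 with R1881 and SNX631. In the order of group means, R1881 with Senexin B (396 CPM), Senexin B (385), SNX631 (363) and R1881 with SNX631 (348) came first, each overlapping the next, and R1881 at 24 h (286), both vehicle groups (258 at 72 h and 254 at 24 h, overlapping each other) and R1881 at 72 h (222) followed.

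Senexin B alone raised MYC 1.51-fold (log2 fold change 0.60 ± 0.032 (SE), FDR 1.53e-15) and SNX631 alone 1.41-fold (0.49 ± 0.026, FDR 6.44e-18). With R1881 present, the changes were 1.38-fold for Senexin B (0.47 ± 0.033, FDR 1.15e-12) and 1.55-fold for SNX631 (0.63 ± 0.027, FDR 6.75e-21). FDR is the Benjamini-Hochberg adjusted p of edgeR's quasi-likelihood test over all genes tested, and a gene is said to rise or fall when it was under 0.01, the limit the study used, which it joined to a fold change over 1.5. R1881 raised MYC at 24 h by 0.17 ± 0.033 (log2, FDR 7.54e-05) and lowered it at 72 h, by -0.22 ± 0.028 (FDR 1.16e-08). The difference of these effects, tested in a fit of all libraries, was -0.38 ± 0.042 (FDR 2.53e-09). Under Senexin B the effect of R1881 on MYC was 0.04 ± 0.032 (FDR 0.305), and under SNX631 it was -0.08 ± 0.025 (FDR 0.00895), a call that was lost under 5 of 6 alternative settings and on leaving out any of 11 of the 16 libraries. Scaled by library totals alone, the effect of R1881 at 24 h was 0.089 (FDR 0.0187).

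MYCL (ENSG00000116990, chr1:39895426-39902256, minus strand), the family member first found in lung cancer, went the opposite way to MYC under the inhibitors in the presence of androgen. At 24 h it was at 6.78, 7.27 and 8.94 CPM with R1881 and at 3.72, 4.64 and 4.74 CPM with R1881 and Senexin B, so the groups did not overlap. This was a 1.77-fold fall (log2 -0.82 ± 0.166, FDR 0.000194). At 72 h MYCL was at 8.91, 9.11, 9.34 and 10.1 CPM with R1881 and at 6.63, 7.60, 7.64 and 7.94 CPM with R1881 and SNX631, again without overlap, and the log2 change was -0.34 ± 0.104 (FDR 0.00686). The 72 h call was lost with the Wald test of DESeq2 (FDR 0.0262), with no filter on low counts (FDR 0.014), with all libraries in one fit (FDR 0.0141) and on leaving out any of 6 libraries. Without androgen MYCL was at 5.32, 6.45 and 6.78 CPM in vehicle and 4.32, 5.52 and 6.31 with Senexin B, and at 6.84, 7.54, 8.50 and 8.53 CPM in vehicle and 5.27, 6.09, 6.54 and 7.99 with SNX631, and both pairs of groups overlapped. The change was -0.15 ± 0.146 (FDR 0.462) with Senexin B and -0.27 ± 0.112 (FDR 0.057) with SNX631, the latter with FDR 0.00823 when replicate 2 of SNX631 was left out. R1881 gave 0.37 ± 0.139 (FDR 0.0244) at 24 h and 0.26 ± 0.105 (FDR 0.0343) at 72 h. The interaction of R1881 and Senexin B on MYCL, -0.67 ± 0.221, had a 95% interval from -1.11 to -0.24 and an FDR of 0.0797.

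MAX (ENSG00000125952, chr14:65006174-65102695, minus strand), the shared partner that MYC needs to bind DNA and that the antagonists also pair with, varied little. Its group means ran from 63.2 to 76.2 CPM. It rose in 1 of the 8 comparisons of paired groups, with SNX631 in the presence of R1881, from 61.8, 62.5, 63.0 and 65.5 CPM to 69.8, 71.4, 71.5 and 72.8, without overlap (log2 0.17 ± 0.039, FDR 0.000551). With scaling by library totals alone, MAX was also lower with R1881 at 72 h (-0.17, FDR 0.00026), where the value was otherwise -0.07 ± 0.040 (FDR 0.136). The ratio of MYC to MAX, in RPKM, was 5.31 ± 0.263 (SD, n = 3) in vehicle and 7.46 ± 0.0149 with Senexin B, and 5.93 ± 0.273 with R1881 and 7.91 ± 0.229 with both. At 72 h it was 5.78 ± 0.245 (n = 4) in vehicle and 7.86 ± 0.501 with SNX631, and 5.20 ± 0.0876 with R1881 and 7.19 ± 0.160 with both.

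Among the antagonists, MXD4 (ENSG00000123933, chr4:2247432-2262294, minus strand) was the most abundant and fell with both inhibitors. At 24 h MXD4 was at 267, 274 and 275 CPM in vehicle and at 198, 206 and 216 with Senexin B, and in the presence of R1881 at 268, 268 and 272 CPM, and at 197, 212 and 225 with Senexin B added. At 72 h it was at 224, 229, 232 and 238 CPM in vehicle and at 176, 182, 183 and 189 with SNX631, and in the presence of R1881 at 244, 246, 253 and 254 CPM, and at 193, 194, 196 and 200.5 with SNX631 added. All 4 pairs of groups were apart, with every inhibitor library below the matching libraries without inhibitor. The falls were 1.32-fold with Senexin B alone (log2 -0.40 ± 0.038, FDR 6.32e-10), 1.27-fold with SNX631 alone (-0.34 ± 0.028, FDR 7.28e-13), 1.27-fold with Senexin B under R1881 (-0.35 ± 0.039, FDR 2.26e-08) and 1.28-fold with SNX631 under R1881 (-0.36 ± 0.027, FDR 9.41e-14). The effect of R1881 on MXD4 was -0.02 ± 0.037 (FDR 0.743) at 24 h. At 72 h R1881 raised MXD4 by 0.10 ± 0.027 (FDR 0.000934), but with scaling by library totals alone this was 0.0025 (FDR 0.94), and that scaling moved the median of all genes in the comparison by -0.10. Under SNX631 it raised MXD4 by 0.09 ± 0.028 (FDR 0.00717), a call lost on leaving out any of 6 libraries and turned to -0.023 with library totals alone.

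**Figure D2:**
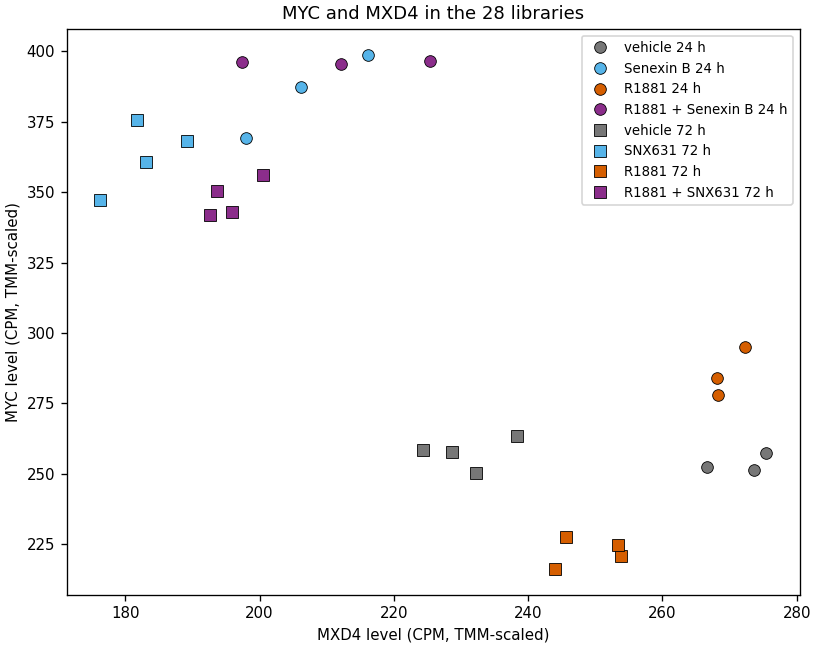
MYC level against MXD4 level in each of the 28 libraries, both in CPM after TMM scaling; circles are 24 h and squares 72 h, and colours give the treatment. The 14 inhibitor libraries lie at 342 CPM of MYC or more and 225 of MXD4 or less, and the 14 libraries without inhibitor at 295 CPM of MYC or less and 224 of MXD4 or more.

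Over the 28 libraries, with each experiment centred on its own mean, Pearson's r between MYC and MXD4 was -0.95, which ranked MXD4 14896th among 14903 genes ordered from most to least like MYC. These points fall into groups with and without inhibitor and share libraries and depth, so r is given as a description. MAX had r = 0.73, MYCL -0.66 and MXD1 -0.52, and the remaining members lay between 0.028 (MLX) and 0.37 (MXI1). The genes most like MYC by this measure were CFAP69, a protein of the sperm tail (r = 0.97), CA12, a carbonic anhydrase of the cell surface (0.97), LRPPRC, which binds mitochondrial mRNA (0.97), WDR75, a ribosome assembly factor (0.96), and TRMT1, a tRNA methyltransferase (0.96).

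MXI1 (ENSG00000119950, chr10:110207605-110287365, plus strand), the antagonist named for its interaction with MAX, fell with androgen and rose with the inhibitors, and its 8 comparisons of paired groups all passed. At 24 h MXI1 was at 92.2, 95.2 and 95.9 CPM in vehicle and at 61.3, 66.2 and 68.5 with R1881. With Senexin B it was at 111, 116 and 119 CPM, and at 70.7, 74.5 and 82.9 with R1881 added. At 72 h it was at 108, 109, 109 and 111 CPM in vehicle, at 63.4, 66.4, 68.2 and 69.3 with R1881, at 116, 117, 122 and 125 with SNX631 and at 73.4, 75.9, 77.0 and 81.3 with both. Every R1881 library lay below every library without R1881, and within each androgen state of an experiment the inhibitor libraries lay above those without inhibitor. R1881 lowered MXI1 1.45-fold at 24 h (log2 -0.54 ± 0.051, FDR 5.89e-11) and 1.64-fold at 72 h (-0.72 ± 0.038, FDR 2.78e-19), 1.52-fold under Senexin B (-0.60 ± 0.049, FDR 2.5e-12) and 1.58-fold under SNX631 (-0.66 ± 0.035, FDR 3.88e-19). The inhibitors raised it by 0.28 ± 0.045 (Senexin B, FDR 8.28e-06), 0.13 ± 0.033 (SNX631, FDR 0.00169), 0.22 ± 0.054 (Senexin B under R1881, FDR 0.00199) and 0.19 ± 0.039 (SNX631 under R1881, FDR 0.0001). The call for SNX631 alone was lost with library totals (FDR 0.0119) and without replicate 1 of SNX631 (0.11, FDR 0.0129). That for Senexin B under R1881 was lost with library totals (FDR 0.0103), without replicate 2 of R1881 (0.17, FDR 0.0235) and without replicate 3 of R1881 with Senexin B (0.15, FDR 0.0479).

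MXD1 (ENSG00000059728, chr2:69897688-69942945, plus strand), the antagonist known for rising as cells differentiate, was higher with R1881 in all 4 settings. At 24 h it was at 30.3, 33.2 and 34.1 CPM in vehicle, at 37.3, 37.7 and 38.3 with R1881, at 27.2, 27.4 and 28.9 with Senexin B and at 29.9, 35.2 and 36.5 with both. At 72 h the vehicle libraries (29.6, 30.1, 30.4 and 33.8 CPM) overlapped those with R1881 (32.9, 35.7, 36.5 and 38.3), while those with SNX631 (27.1, 28.7, 29.4 and 29.8) lay below those with both (31.9, 32.3, 32.5 and 33.0). The rises were 0.20 ± 0.063 (FDR 0.00743) at 24 h, 0.20 ± 0.054 (FDR 0.00191) at 72 h, 0.27 ± 0.070 (FDR 0.00119) under Senexin B and 0.16 ± 0.054 (FDR 0.0093) under SNX631. Senexin B alone lowered MXD1 (-0.24 ± 0.065, FDR 0.00441). Scaling by library totals alone ended all 4 androgen calls (FDR 0.0916, 0.123, 0.0143 and 0.399 in the order above). The Wald test of DESeq2 ended the calls for R1881 at 24 h (FDR 0.025), R1881 under SNX631 (FDR 0.0234) and Senexin B alone (FDR 0.0218). No filter on low counts ended that for R1881 at 24 h (FDR 0.0109), and a replicate block that for R1881 under SNX631 (FDR 0.0125). Leaving out 1 library also ended a call: any of 5 libraries did so for R1881 at 24 h, 11 for R1881 under SNX631 and 4 for Senexin B. R1881 at 72 h lost its call without replicate 1 of vehicle (0.17, FDR 0.0111) or of R1881 (0.17, FDR 0.0123), and R1881 under Senexin B without replicate 1 of the combination (0.21, FDR 0.0225).

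MXD3 (ENSG00000213347, chr5:177301461-177312757, minus strand), an antagonist known from dividing cells, and MNT (ENSG00000070444, chr17:2384060-2401118, minus strand), the most widely expressed antagonist, passed in none of the 8 comparisons of paired groups. MXD3 group means ran from 26.6 to 30.7 CPM, and its 8 effects lay between -0.05 and 0.11 on the log2 scale with 95% intervals that reached from -0.19 to 0.21. MNT group means ran from 39.1 to 46.1 CPM, and its effects lay between -0.16 and 0.10 with intervals that reached from -0.28 to 0.21. With scaling by library totals alone, MNT passed as lower with R1881 under Senexin B (-0.24, FDR 0.00155) and under SNX631 (-0.19, FDR 0.00275), and it passed under Senexin B without replicate 3 of Senexin B (-0.23, FDR 0.00321).

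**Figure D3:**
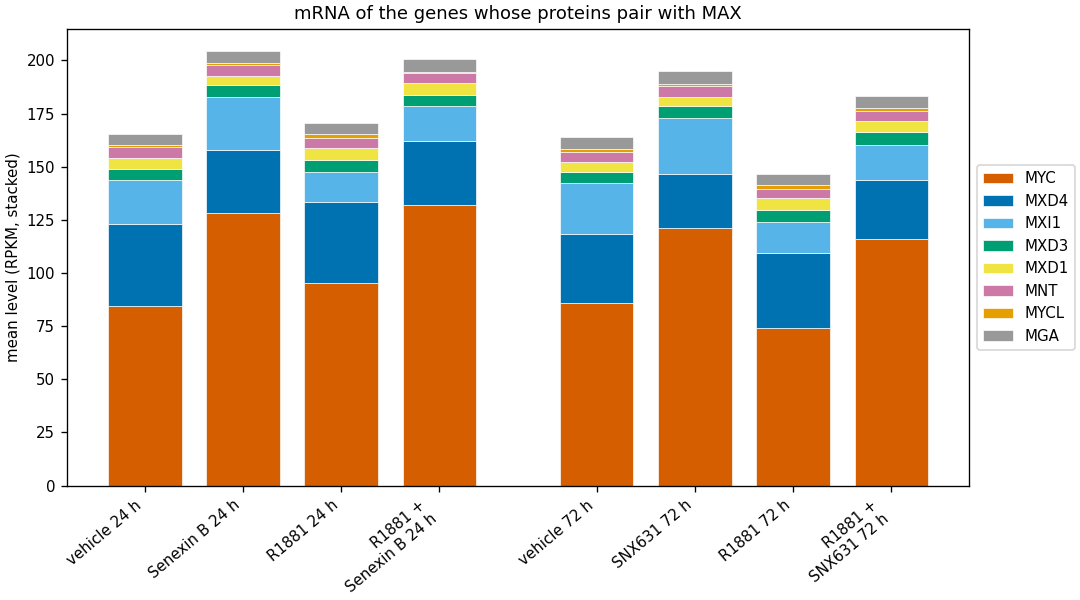
Mean level of the mRNAs whose proteins pair with MAX, stacked, in RPKM from 0, for the 8 groups (n = 3 at 24 h, n = 4 at 72 h; MYCN is at 0). The sum is 146.8 to 170.8 RPKM without inhibitor and 183 to 205 with inhibitor. The MYC part is larger and the MXD4 part smaller in all inhibitor groups, and the MXI1 part is smaller in all R1881 groups.

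Summed over the mRNAs that encode partners of MAX (MYC, MYCN, MYCL, MXD1, MXI1, MXD3, MXD4, MNT and MGA), MYC took 51.1% ± 0.286 (SD, n = 3) of the RPKM in vehicle at 24 h, 62.7% ± 0.425 with Senexin B, 55.7% ± 0.849 with R1881 and 65.8% ± 0.637 with both. At 72 h MYC took 52.4% ± 0.495 (n = 4) in vehicle, 62.0% ± 0.751 with SNX631, 50.5% ± 0.685 with R1881 and 63.3% ± 0.190 with both. MXD4 took 23.3% ± 0.307 in vehicle and 14.3% ± 0.195 with Senexin B at 24 h, and 24.1% ± 0.419 with R1881 and 15.1% ± 0.164 with R1881 and SNX631 at 72 h. The ratio of MYC to MXD4 in RPKM was 2.20 ± 0.0331 in vehicle and 4.38 ± 0.0396 with Senexin B, and 2.62 ± 0.0743 in vehicle and 4.68 ± 0.124 with SNX631. These shares are of mRNA and were not tested as such, and protein was not measured here. Their absolute size, and that of the ratios, depends on the exon lengths used, 3001 bases for MYC and 7058 for MXD4. The same lengths were used in every group.

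MLX (ENSG00000108788, chr17:42567068-42573239, plus strand) rose with R1881 in all 4 settings. At 24 h it was at 80.7, 81.2 and 85.3 CPM in vehicle and at 95.5, 103 and 107 with R1881, and at 79.6, 81.9 and 82.2 with Senexin B and at 102, 103 and 108 with both. At 72 h it was at 69.7, 69.8, 71.6 and 73.7 CPM in vehicle and at 92.1, 92.8, 95.5 and 100.1 with R1881, and at 76.5, 76.9, 77.0 and 77.8 with SNX631 and at 91.8, 94.7, 95.4 and 103 with both. No R1881 group overlapped its control. The rises were 1.24-fold (log2 0.30 ± 0.043, FDR 3.18e-07) at 24 h, 1.33-fold (0.41 ± 0.038, FDR 7.76e-12) at 72 h, 1.28-fold (0.36 ± 0.045, FDR 2.46e-08) under Senexin B and 1.24-fold (0.31 ± 0.037, FDR 2.52e-09) under SNX631. MLX passed in none of the 4 inhibitor comparisons, where its effects were -0.02, 0.11, 0.03 and 0.0073, for Senexin B and SNX631 alone and then with R1881, although the SNX631 libraries did not overlap vehicle at 72 h.

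**Figure D4:**
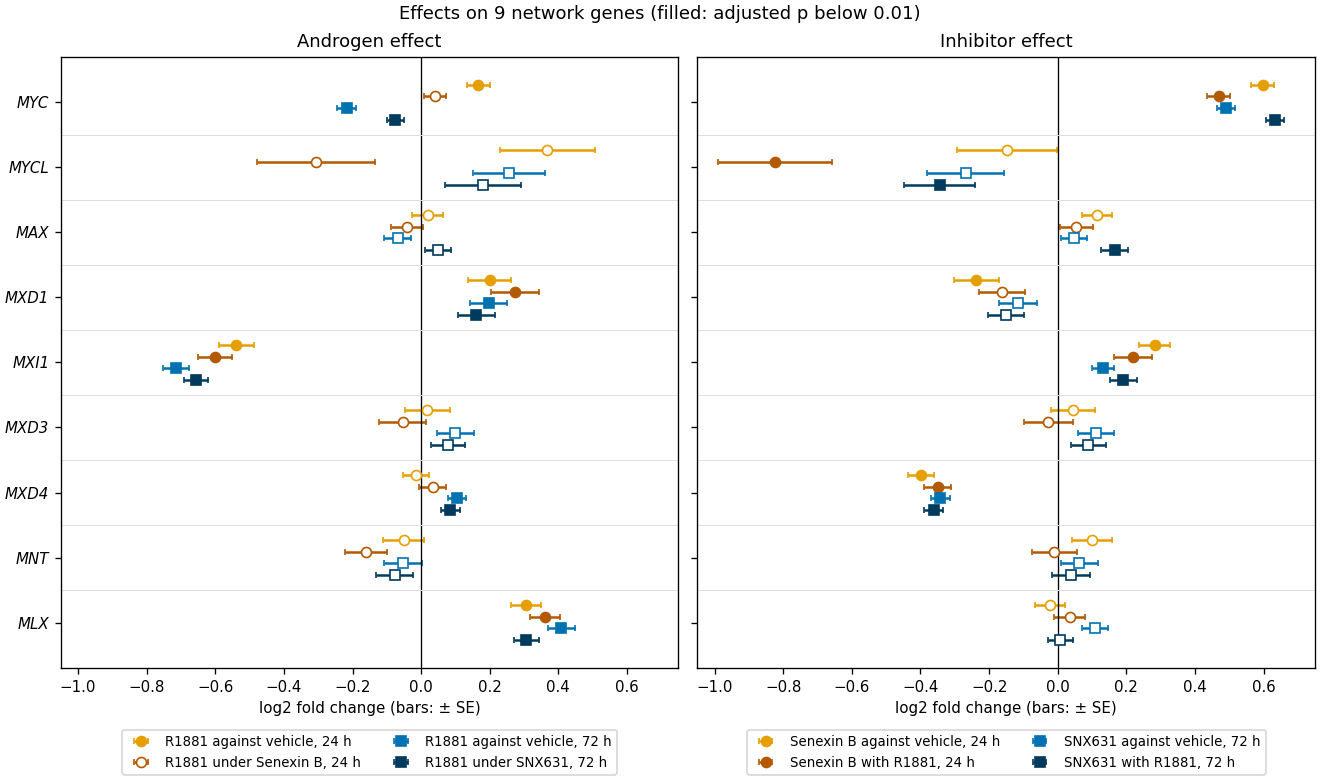
Log2 fold change ± SE of each detected member in the 4 androgen comparisons (left) and the 4 inhibitor comparisons (right); circles are 24 h, squares 72 h, and filled symbols have an FDR under 0.01. MXI1 and MLX lie on opposite sides of 0 under androgen, and MYC and MXD4 on opposite sides under the inhibitors.

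Set against all genes, the members moved about as often as others did under androgen. At 24 h R1881 moved 4 of the 9 members tested (MYC, MXD1 and MLX up, MXI1 down), beside 48.4% of 15948 genes, and 0 of them by over 1.5-fold, beside 19% of genes. At 72 h R1881 moved 5 (MXD1, MXD4 and MLX up, MYC and MXI1 down), beside 52.2% of 16074 genes, and MXI1 by over 1.5-fold, beside 19.8%. Under Senexin B it moved 3 (MXD1 and MLX up, MXI1 down), beside 47.5%, with MXI1 over 1.5-fold, beside 18.9%. Under SNX631 it moved 5 (MXD1, MXD4 and MLX up, MYC and MXI1 down), beside 57.3%, with MXI1 over 1.5-fold, beside 22%. The comparisons within an experiment share groups, so these counts are not independent of each other. Shares of 3 to 5 in 9 are near the background, and no statement about the network as a whole is drawn from them.

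The inhibitors moved fewer genes in all. Senexin B alone moved 4 of the 9 members (MYC and MXI1 up, MXD1 and MXD4 down), beside 25.1% of genes, with MYC over 1.5-fold, beside 3.79%. SNX631 alone moved 3 (MYC and MXI1 up, MXD4 down), beside 26.9%, and 0 by over 1.5-fold, beside 4.77%. With R1881 present, Senexin B moved 4 (MYC and MXI1 up, MYCL and MXD4 down), beside 22.7%, with MYCL over 1.5-fold, beside 3.12%. With R1881 present, SNX631 moved 5 (MYC, MAX and MXI1 up, MYCL and MXD4 down), beside 33.1%, with MYC over 1.5-fold, beside 4.12%. MYC, MXI1 and MXD4 were among the members moved in all 4 inhibitor comparisons, each in 1 direction.

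Whether an inhibitor altered the response to androgen was tested as an interaction, the effect of R1881 with inhibitor minus that without. At 24 h 0 of 9 members passed by edgeR's quasi-likelihood test, beside 2.09% of genes, or 0.577% with a fold over 1.5, and 2 had an unadjusted p under 0.05, while 0 passed by the Wald test of DESeq2. MYC was at -0.13 ± 0.046 (FDR 0.127) there. At 72 h, of the members, MYC alone passed, with 0.14 ± 0.037 (FDR 0.00825), beside 7.09% of genes, and 0 members did so with a fold over 1.5, beside 1.19%. That call was lost with library totals (FDR 0.0118), with a replicate block (FDR 0.0113) and on leaving out any of 9 of the 16 libraries, over which the value ran from 0.12 to 0.16. The remaining 8 members at 72 h had interactions of -0.10 to 0.12 with 95% intervals from -0.38 to 0.22. For the androgen effect at 72 h minus that at 24 h, MYC alone passed of the members, beside 7.54% of 16672 genes, or 1.88% with a fold over 1.5, which MYC did not reach.

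MLXIP, the glucose sensor that pairs with MLX, fell with R1881 by -0.23 ± 0.036 (FDR 1.37e-06) at 24 h and -0.23 ± 0.031 (FDR 4.77e-08) at 72 h, and also fell with Senexin B alone (-0.23 ± 0.036, FDR 7.27e-06) and SNX631 alone (-0.12 ± 0.030, FDR 0.00198). With R1881 under SNX631 it fell by -0.14 ± 0.030 (FDR 7.68e-05), while it did not pass with R1881 under Senexin B (-0.03 ± 0.037, FDR 0.493), with Senexin B under R1881 (-0.02 ± 0.038, FDR 0.708) or with SNX631 under R1881 (-0.03 ± 0.031, FDR 0.397). MLXIPL, the liver-type counterpart of MLXIP, was low, at group means of 1.37 to 3.45 CPM, and fell with R1881 at 24 h (-1.22 ± 0.275, FDR 0.000149), at 72 h (-0.86 ± 0.224, FDR 0.000875) and under SNX631 (-0.89 ± 0.202, FDR 0.000152). It did not pass with R1881 under Senexin B (-0.67 ± 0.244, FDR 0.0173) or in any inhibitor comparison. MGA, a MAX partner that also holds a T-box domain, did not pass in any of the 8 comparisons. Of 4 genes known as targets of MLX and MLXIP (TXNIP, ARRDC4, HK2 and PFKFB3), 2 rose and 1 fell in 7 of the 8 comparisons. At 72 h R1881 raised 2 and lowered 2. Of all genes, 47.5% to 57.3% passed in the androgen comparisons and 22.7% to 33.1% in the inhibitor comparisons. With only 4 genes, no statement about the list is drawn from these counts. TXNIP, an inhibitor of glucose uptake, fell in all 8. Its mean was 207 ± 7.75 CPM in vehicle at 24 h, 118 ± 7.22 with Senexin B, 125 ± 1.99 with R1881 and 71.0 ± 6.88 with both (SD, n = 3), and 309 ± 15.5, 174 ± 4.29, 153 ± 6.33 and 99.4 ± 4.09 in the matching groups at 72 h (n = 4). HK2, the first enzyme of glycolysis, rose in all 8, by 0.41 (SNX631 alone) to 1.09 (R1881 under SNX631) on the log2 scale.

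Of 12 cofactors of MYC and corepressors of the MXD proteins, 7 passed with R1881 at 24 h and 7 at 72 h. With Senexin B alone 6 passed, and with SNX631 alone 5. In these comparisons 0 of them changed over 1.5-fold. Of all genes, 48.4%, 52.2%, 25.1% and 26.9% passed in the same comparisons. WDR5, a scaffold that holds MYC on chromatin, rose with R1881 by 0.48 ± 0.043 (FDR 2.7e-11) at 24 h and 0.36 ± 0.040 (FDR 4.14e-10) at 72 h. KAT2A, a histone acetyltransferase recruited by MYC, rose with Senexin B by 0.41 ± 0.035 (FDR 9.55e-11) and SNX631 by 0.24 ± 0.033 (FDR 2.82e-07). Of 12 genes for regulators of MYC protein turnover, 9 passed with R1881 at 24 h and 7 at 72 h. With Senexin B alone 4 passed, and with SNX631 alone 6. These counts stand beside the same shares of all genes, which 7 and 4 of 12 lie near. AURKA, a mitotic kinase that also stabilises MYC family proteins, rose by 1.79 ± 0.098 (FDR 4.39e-17) with R1881 at 24 h. USP36, a deubiquitinase of MYC, rose by 0.43 ± 0.053 (FDR 1.29e-07) with Senexin B and was lower with R1881 at 72 h (-0.56 ± 0.045, FDR 1.19e-13).

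**Figure D5:**
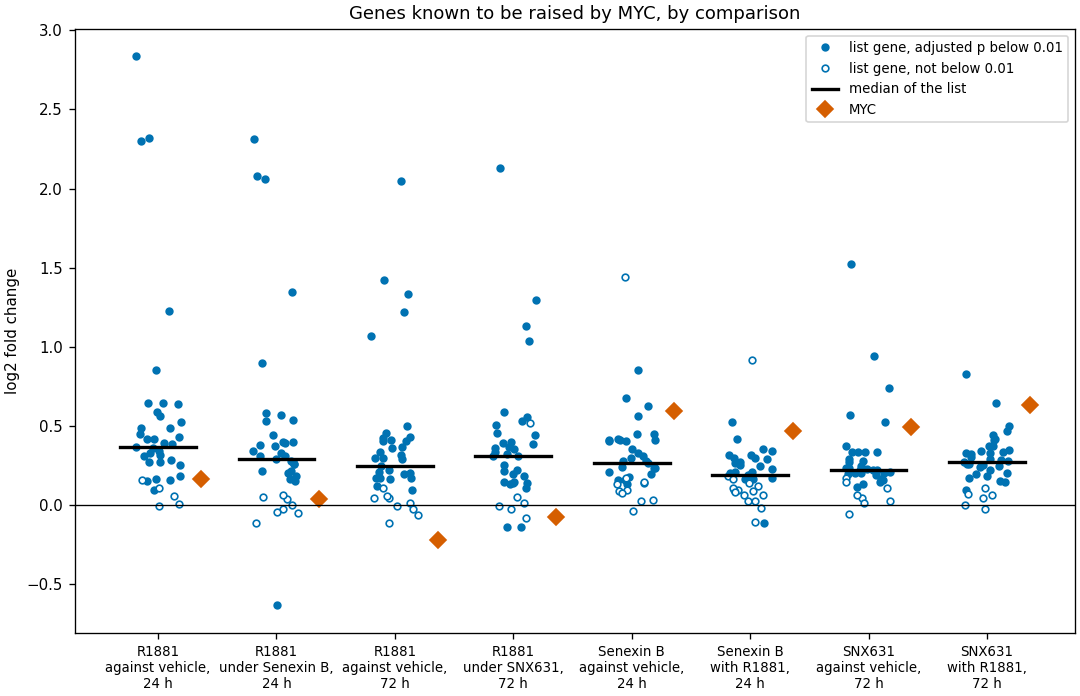
Log2 fold change of the 39 tested genes of a list known to be raised by MYC (dots, filled where the FDR was under 0.01), their median (black bar) and MYC itself (diamond), in the 8 comparisons of paired groups. The medians lie between 0.19 and 0.37 in all 8, while MYC lies between -0.22 and 0.63.

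Genes known to be raised by MYC were a list of 40 written from general knowledge, with 39 tested. They are given as the number that rose and fell beside the share of all genes that did so. This list and the other gene lists were chosen with earlier results of these data known, so the counts are a description only. R1881 raised 34 and lowered 0 at 24 h (median log2 0.37), beside 26.3% of all genes higher and 22.1% lower. At 72 h, where MYC itself fell, it raised 30 and lowered 0 (0.25), beside 27.6% and 24.6%. Under Senexin B it raised 30 and lowered 1 (0.29), beside 26.3% and 21.2%, and under SNX631 it raised 31 and lowered 2 (0.31), beside 29.8% and 27.5%. Senexin B alone raised 29 and lowered 0 (0.26), beside 13.5% and 11.7%, and SNX631 alone raised 31 and lowered 0 (0.22), beside 14.4% and 12.5%. With R1881 present, Senexin B raised 22 and lowered 1 (0.19), beside 12.7% and 9.99%, and SNX631 raised 33 and lowered 0 (0.27), beside 17.8% and 15.4%. The genes lowered, named after their values were seen, were DKC1 under Senexin B, DKC1 and APEX1 under SNX631, and EIF4A1 for Senexin B with R1881. Medians over all genes tested lay between -0.016 and 0.01 in these 8 comparisons. Beside these counts, 8 of 8 cell cycle genes rose with R1881 at 24 h (median 2.34) and 8 at 72 h (1.48), 7 with Senexin B (0.50) and 8 with SNX631 (0.97), and their part in the counts was not tested.

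ODC1, the first enzyme of polyamine synthesis, rose by 1.23 ± 0.043 (FDR 7.45e-22) with R1881 at 24 h and by 2.04 ± 0.022 (FDR 1.09e-41) at 72 h. MCM4, a subunit of the replicative helicase, rose by 2.30 ± 0.052 (FDR 2.03e-27) and 1.42 ± 0.036 (FDR 9.12e-30) in the same comparisons. With the inhibitors, DKC1, the pseudouridine synthase of ribosomal RNA, rose by 0.86 ± 0.034 (FDR 5.24e-19) with Senexin B and 0.57 ± 0.028 (FDR 6.42e-19) with SNX631. CAD, which starts pyrimidine synthesis, rose by 0.63 ± 0.043 (FDR 4.87e-13) with Senexin B. R1881 gave 0.06 ± 0.036 (FDR 0.158) for DKC1 without Senexin B and -0.63 ± 0.035 (FDR 1.17e-16) with it, an interaction of -0.69 ± 0.050 (FDR 3.1e-11).

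Of 6 genes known to be lowered by MYC, Senexin B alone lowered 5 and raised 0, and SNX631 alone lowered 3 and raised 0. Of all genes, 11.7% were lower and 13.5% higher with Senexin B, and 12.5% lower and 14.4% higher with SNX631. CDKN1A, the cell cycle inhibitor p21, was lower with Senexin B (-0.27 ± 0.046, FDR 2.71e-05) and with SNX631 (-0.28 ± 0.040, FDR 4.92e-07). R1881 lowered 3 and raised 2 at 24 h, and lowered 3 and raised 2 at 72 h, beside the shares of all genes given for these comparisons with the raised list. CDKN1A was among those lowered, by -0.92 ± 0.052 (FDR 1.35e-16) at 24 h and -0.53 ± 0.043 (FDR 7.86e-14) at 72 h. NDRG1, a growth-arrest gene also known as an androgen target, went the other way and rose by 2.36 ± 0.046 (FDR 7.56e-29) and 2.97 ± 0.037 (FDR 6.09e-40). Under Senexin B, R1881 lowered 3 of the 6 and raised 2 (median log2 0.0020), beside 21.2% of all genes lower and 26.3% higher. The remaining comparisons of paired groups are not given for this list.

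PVT1, the non-coding gene next to MYC, rose with the inhibitors, as MYC did, by 0.32 ± 0.061 (FDR 8.74e-05) with Senexin B and 0.37 ± 0.056 (FDR 1.2e-06) with SNX631, and was lower with R1881 at 72 h (-0.23 ± 0.062, FDR 0.0014). CASC11, which is read from the MYC locus, was low, at group means of 0.269 to 1.08 CPM, and passed with R1881 at 72 h (-1.24 ± 0.372, FDR 0.00237) and with Senexin B under R1881 (1.65 ± 0.532, FDR 0.00806). MYCNOS, MYCNUT and MYCL-AS1 did not pass the filter on low counts.

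Counts of some members can hold reads of other genes. Of the 28 values, 46.4% were fractional for MXD1, which overlaps SNRNP27 on its strand, 53.6% for MXD3, which overlaps RAB24 and PRELID1, and 64.3% for MXD4, which holds MIR4800, so these counts were partly shared out. MYCN, MYCL, MAX, MXI1, MNT and MLX overlap genes on the opposite strand, and MXI1 also overlaps the pseudogene AL360182.1 on its own strand. For each of these members 0% of the 28 values were fractional. Since the use of strand in counting is not given in the sources used here, reads from the overlapping genes cannot be told apart. The part of such reads in the results was not tested.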

How the data were processed

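Total RNA of 28 LNCaP libraries made with a directional kit was sequenced. The authors deposited 1 table of expected counts per gene, in which reads shared between genes leave fractions (16.9% of values above 0), with no scaling for depth. The submitters' processing notes name STAR 2.7.2b, cutadapt 2.8, FastQC, Subread 2.0.3 with featureCounts and the build GRCh38.p13; the annotation release and the strand setting are not given in the sources used here. The 2 entries for added, non-human sequences, at 0 throughout, were left out.

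The counts were rounded and fitted per experiment with edgeR 4.0.16 (TMM scaling, filterByExpr with a count minimum of 10 and a total of 15, quasi-likelihood test, Benjamini-Hochberg adjustment over all genes tested, R 4.3.3), with 1 term per group. This kept 15948 genes at 24 h and 16074 at 72 h. A fit of all libraries (16672 genes) gave the difference between experiments. Each standard error is that of the log2 coefficient. CPM used TMM over all libraries, and RPKM divided it by the union of exons in GENCODE 29. Alternatives were DESeq2 1.42.0, other scaling, no filter, a replicate block, all libraries together, other limits and leaving out each library. Tested on simulated counts for R1881 against vehicle, edgeR recovered 72% of 100 genes changed 1.5-fold at 24 h (15690 genes) and 76% at 72 h (15765 genes), and 86% of those changed 2-fold in each. Only these genes were changed in the simulation, while in the data R1881 moved 48.4% of genes at 24 h and 52.2% at 72 h. The recovery shares therefore describe the simulated setting and not the data. The text names every member, at most the 4 genes of a list with the strongest change among those past the limit, and the 5 genes most like MYC with at least 1 CPM on average; exceptions are said to be so. The members and lists were chosen with earlier results of these data known. Replicates of a group differed by more than counting noise, with a chi-square per degree of freedom of 1.20 to 2.48 over 36 pairs.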

Additional observations from a re-analysis of the deposited data

Results flagged for a closer look

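MYC stood out by tests of a difference between effects. Its response to R1881 differed between the experiments, by -0.38 ± 0.042 on the log2 scale for 72 h minus 24 h (edgeR, FDR 2.53e-09): with R1881 the level was outside the range of vehicle in every library, above it in 3 of 3 at 24 h and below it in 4 of 4 at 72 h. Its response to R1881 at 72 h also differed with and without SNX631, by 0.14 ± 0.037 (FDR 0.00825), and that call depended on the processing. In 36 sets of 4 libraries, 0 members had a library far from the rest.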

How the results depend on the processing

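The MYC and MXD4 changes with the inhibitors, the MXI1 and MLX changes with R1881, MYCL with Senexin B under R1881 and MYC at 72 h minus 24 h kept direction and call in every alternative run for them. Over all member effects, 1097 of 1176 values without 1 library and 463 of 500 under other alternatives kept both. With a fold limit of 1.5 added, the members counted were 0, 1, 1 and 1 for R1881 (24 h, 72 h, under Senexin B, under SNX631), 1 and 0 for Senexin B and SNX631 alone, 1 each with R1881, and 0 for the interaction at 72 h. With library totals only, 2 members passed for R1881 at 24 h and 0 for the interaction at 72 h, and these values changed sign: MAX -0.059 and MXD3 -0.060 for R1881 at 24 h, MYC -0.035 and MXD4 -0.041 under Senexin B, MXD3 -0.0021 for R1881 at 72 h, MAX -0.059, MXD3 -0.031 and MXD4 -0.023 under SNX631, and MLX -0.0017 for Senexin B and -0.025 for SNX631 with R1881. This scaling moved the median of all genes by -0.11 to -0.07 in the androgen comparisons. The Wald test of DESeq2 passed 3 members for R1881 under SNX631. Without 1 library, 2 to 5 members passed for R1881 under SNX631 and 0 to 1 for the interaction at 72 h. Effects near 0 that changed sign without 1 library ran as follows: MAX -0.0063 to 0.063 and MXD3 -0.055 to 0.061 (R1881, 24 h), MXD4 -0.018 to 0.081 (R1881 under Senexin B), MXD3 -0.029 to 0.090 and MLX -0.037 to 0.0065 (Senexin B), MXD3 -0.069 to 0.0093, MNT -0.051 to 0.054 and MLX -0.020 to 0.064 (Senexin B with R1881), MNT -0.0068 to 0.074 and MLX -0.028 to 0.031 (SNX631 with R1881), MXD4 -0.011 to 0.095 (interaction, 24 h), MYCL -0.16 to 0.047 (interaction, 72 h) and MYCL -0.19 to 0.045 (72 h minus 24 h). The cause of these changes was not tested.

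Deviations of same-numbered libraries from their group means were weakly correlated over all genes kept, at -0.015 to 0.067 over 18 pairs at 24 h. At 72 h the correlations were -0.068 to 0.073 over 24 pairs. A pairing that acts on few genes would not be seen in this way, so pairing is not excluded. With a replicate block, 3 members passed for R1881 under SNX631 and 0 for the interaction at 72 h, and 81 of 84 member effects kept direction and call. Depth limited MYCL most, with as few as 47 counts, and MYCN could not be measured.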
